A study of Mus musculus with 4 samples.

Results

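The 6 type IV collagen chain genes, Col4a1 to Col4a6, were followed through 4 RNA-seq libraries of sorted mouse alveolar type 1 (AT1) cells, the thin, flat epithelial cells across which gas passes in the alveolus. They were picked by symbol from the tables of all 4 libraries, and are 6 of 23990 genes. All animals carried Cre at Scnn1a (Scnn1a-Cre) on a mixed B6 and 129 background and were used at postnatal day 3 or 4. The 2 libraries called here labelled Sox2 have the genotype label Rosa[Sox2/+], a Cre-dependent Sox2 transgene at the Rosa locus, and the 2 called labelled control have Rosa[mTmG/+], a Cre-dependent membrane reporter at the same locus. Per the labels' protocols the animals were littermates, cells came from strips of the lobe edge, and dead cells were excluded during sorting. The labels do not state whether the 2 libraries under one label are from different animals. P-values here therefore cover no more than library-to-library spread, which may be technical.

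Type IV collagen is the sheet-forming collagen of basement membranes, the thin matrix layers under epithelia and around vessels. Chains join in threes inside the cell and the trimers then link into a network outside it. Col4a1 and Col4a2 chains form the trimer found in nearly all basement membranes. Col4a3, Col4a4 and Col4a5 chains form the trimer of the kidney glomerulus and the lung alveolus, the antigen-bearing network in Goodpasture disease and the one affected in Alport syndrome, and Col4a5 also joins with Col4a6 in other tissues. In the alveolus the basement membranes of AT1 cells and capillaries lie fused between air and blood.

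The genes lie in the genome as head-to-head pairs, each pair reading outward from a shared start region. On GRCm38 (mm10) the tables place Col4a4 at chr1:82450723-82586849 and Col4a3 at chr1:82586921-82722059, Col4a1 at chr8:11198423-11312826 and Col4a2 at chr8:11312829-11449287, and Col4a6 at chrX:141165403-141474076 and Col4a5 at chrX:141475419-141689235. In GENCODE M21 the transcript with the most exons has 52 for Col4a1, 48 for Col4a2, 52 for Col4a3, 48 for Col4a4, 54 for Col4a5 and 45 for Col4a6. The stretches at the starts are shown because the chains of a pair are set beside each other below. They come from the RefSeq promoter table (GRCm38.p6), which matched 5 of the 6 genes. Col4a3 was not among them, but the window of Col4a4 reaches its start. The 71 bases between the GENCODE starts of Col4a4 and Col4a3 (chr1:82586850-82586920), the 22 bases that the first exons of Col4a1 and Col4a2 share in GENCODE (chr8:11312805-11312826), the 201 bases before Col4a5 (chrX:141475169-141475369) and the 231 bases before Col4a6 (chrX:141474096-141474326) read as follows, with capitals for a match to a searched motif. The first 3 are on the plus strand and the last is on the minus strand. The Col4a5 and Col4a6 stretches end just before the start of the gene in RefSeq. That start comes before the one placed above for each gene, so these stretches stop short of the latter.
Col4a4 to Col4a3: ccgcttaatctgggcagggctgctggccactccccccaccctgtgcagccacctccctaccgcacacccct
Col4a1 and Col4a2: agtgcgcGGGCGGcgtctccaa
Col4a5: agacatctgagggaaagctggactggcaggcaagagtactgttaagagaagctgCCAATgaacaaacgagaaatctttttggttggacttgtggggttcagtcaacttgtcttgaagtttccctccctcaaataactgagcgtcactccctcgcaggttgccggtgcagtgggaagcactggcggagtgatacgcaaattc
Col4a6: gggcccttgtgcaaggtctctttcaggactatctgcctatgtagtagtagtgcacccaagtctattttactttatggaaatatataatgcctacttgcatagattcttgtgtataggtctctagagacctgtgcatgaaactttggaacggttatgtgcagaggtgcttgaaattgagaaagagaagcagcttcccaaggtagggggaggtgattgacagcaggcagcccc

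G and C content was taken over the printed stretches, which differ in length and in their place at the starts. It was 69.0% over the 71 bases between Col4a4 and Col4a3 and 72.7% over the 22 shared bases of Col4a1 and Col4a2. Over the 201 bases before Col4a5 it was 49.8%, and over the 231 before Col4a6 it was 45.5%. Equal windows were not compared, so these values do not compare the pairs. Motifs were searched on both strands of the 300-base windows (250 bases before the start and 50 after). The CCAAT box was searched by the letters of its name. The GC box was searched as GGGCGG. The TATA box was searched as TATAAA, and a core that SOX factors bind was searched as AACAAT. None of these letter strings contains another. The windows of Col4a1, Col4a2 and Col4a5 held 1 CCAAT each, a match found in 37.4% of all 32851 windows, and that of Col4a1 overlaps that of Col4a2, so their matches can be the same. GGGCGG, found in 35.7% of windows, occurred 3 times in the window of Col4a2, once in those of Col4a1, Col4a5 and Col4a6, and not in that of Col4a4. No window of the 5 held TATAAA, which 13.6% of all windows hold, or AACAAT, which 10.7% hold. Other forms of the TATA box and the SOX core were not searched. These matches describe letters only.

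The level of Sox2 ran against the labels. FPKM is a fragment count scaled by the length of the transcript and the depth of the library. Sox2 stood at 1.41 and 1.99 FPKM under the Sox2 label and at 302 and 477 FPKM under the control label. Every direction below follows the labels as deposited and so runs against the level of the gene they name. Depth is unknown, since no counts were analysed here, and the deposited bounds around each value served as the guide to precision. The median half-width of the bounds was 7.79% to 12.4% of the value per library, for genes of at least 1 FPKM. For the collagen IV chains it was 0.689% to 9.48%, widest for Col4a3 in labelled control replicate 2. Defining AT1 markers were present in every library. Ager among them stood at 3260 and 3737 FPKM under the Sox2 label and at 496 and 157 FPKM under the control label. Markers of alveolar type 2 cells, given below, were also present in every library and summed to more FPKM than the AT1 markers. In labelled control replicate 2, small RNA genes held 367471 of a summed 721290 FPKM, against 16835 to 94467 FPKM in the other 3 libraries. In bulk RNA, fewer cells of a type and less RNA per cell cannot be told apart.

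Col4a3 and Col4a4, the chains of the alveolar and glomerular network, were the 2 that differed most. Col4a3 stood at 188 and 206 FPKM under the Sox2 label and at 11.9 and 2.80 FPKM under the control label. The groups did not overlap, and the lower control value was that of replicate 2. The means were 197 ± 13.2 (SD, n = 2) and 7.36 ± 6.44 FPKM (SD, n = 2), a 26.8-fold difference. The log2 difference on the log2(FPKM + 1) scale, which understates change in low genes, was 4.82 (SE 0.49, limma adjusted p = 4.62e-04), rank 10 of 12040 tested genes from the top.

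Col4a4 followed the same pattern at 155 and 176 FPKM against 15.0 and 3.41 FPKM. Again both libraries labelled Sox2 lay close together and the labelled control libraries lay apart, replicate 2 below replicate 1. The means were 166 ± 14.9 (SD, n = 2) and 9.21 ± 8.21 FPKM (SD, n = 2), or 18.0-fold, and the log2 difference was 4.31 (SE 0.50, adjusted p = 7.54e-04 in limma). Both chains kept their call with any 1 library left out, but a lone library is then assumed to vary like the other group. Without a labelled control library the fit holds no control spread, so its call does not test that spread. The folds of both chains rested on the control libraries. Without labelled control replicate 1 they were 70.3 for Col4a3 and 48.7 for Col4a4, and without replicate 2 they were 16.5 and 11.0.

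Col4a1 and Col4a2, the chains of the general basement membrane, were higher in the same libraries by less. Col4a1 stood at 395 and 380 FPKM under the Sox2 label and at 169 and 58.5 FPKM under the control label. It was the most abundant of the chains in both libraries labelled Sox2 and in labelled control replicate 1. Its mean was 387 ± 10.5 FPKM (SD, n = 2) against 114 ± 78.2 FPKM (SD, n = 2), 3.40-fold, and the log2 difference was 1.95 (SE 0.44, limma adjusted p = 0.0177). Col4a2 stood at 312 and 338 FPKM against 115 and 49.1 FPKM, in the same order of libraries within the control group. Its means were 325 ± 18.4 and 82.2 ± 46.9 FPKM (SD, n = 2), 3.95-fold, and the log2 difference was 2.09 (SE 0.40, adjusted p = 0.00808 in limma).

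These 2 calls were less stable than those of Col4a3 and Col4a4, with the same limit on fits that leave a group with 1 library. Col4a1 no longer passed when labelled Sox2 replicate 1 (adjusted p = 0.0754 in limma), labelled Sox2 replicate 2 (0.111) or labelled control replicate 2 (0.0728) was left out. Col4a2 no longer passed when labelled Sox2 replicate 2 was left out (adjusted p = 0.0767 in limma). Leaving out labelled control replicate 1 gave a fold of 6.62 for both, and leaving out labelled control replicate 2 gave 2.29 for Col4a1 and 2.81 for Col4a2.

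Col4a5, the chain that both the alveolar trimer and the Col4a6 trimer need, stood at 97.8 and 104 FPKM under the Sox2 label and at 42.4 and 60.5 FPKM under the control label. The groups did not overlap, and here labelled control replicate 2 was the higher of its pair. The means were 101 ± 4.10 and 51.4 ± 12.8 FPKM (SD, n = 2), 1.96-fold, and the log2 difference of 0.98 (SE 0.32, limma adjusted p = 0.0663) did not pass. It passed under quantile normalization (0.0454), with libraries rescaled without small RNA genes (0.0434) and under the robust variance model (0.0469). Without labelled control replicate 2 the log2 difference was 1.23.

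Col4a6, the chain of skin, smooth muscle and other basement membranes, was the least abundant in 3 libraries. It stood at 11.3 and 10.6 FPKM under the Sox2 label and at 8.49 and 12.6 FPKM under the control label, and the groups overlapped. The log2 difference was 0.07, with a 95% interval from -0.73 to 0.87 (limma adjusted p = 0.920), and was -0.19 without labelled control replicate 1. In labelled control replicate 2 Col4a6 exceeded Col4a3 and Col4a4.

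**Figure D1:**
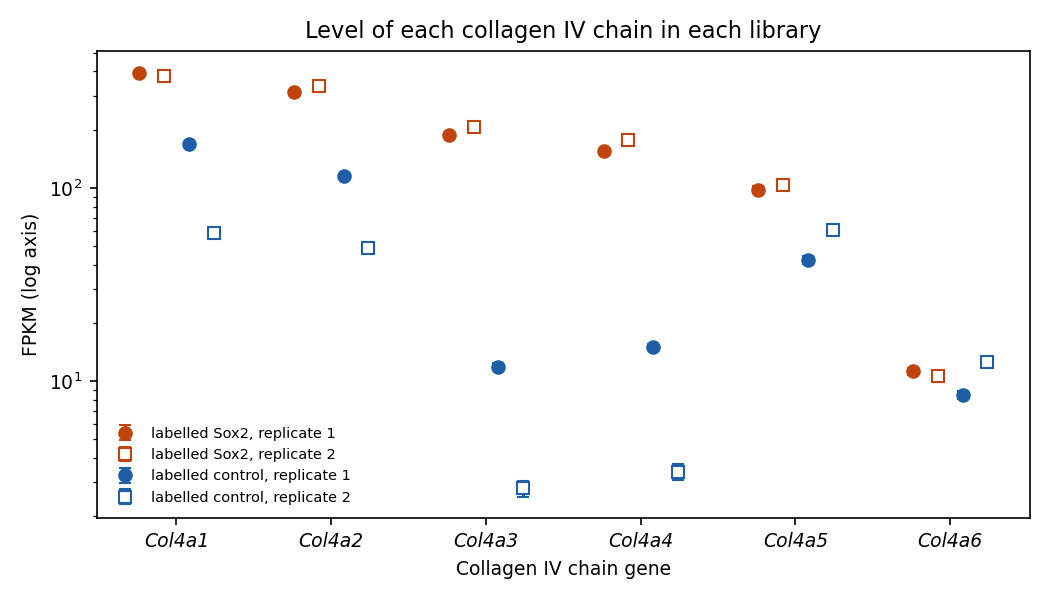
Level of each collagen IV chain in FPKM (log axis) in the 4 libraries, with the deposited lower and upper bounds as bars, which are mostly narrower than the symbols. Col4a1 to Col4a5 lie higher in both libraries labelled Sox2, by the widest margin for Col4a3 and Col4a4, and Col4a6 lies between 8.49 and 12.6 FPKM in all of them.

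In all, 4 of the 6 chains were higher in the libraries labelled Sox2, 0 were lower and 2 did not pass, while 4.20% of all tested genes were called higher and 8.11% lower. All 6 reached the mean of 1 FPKM needed for testing. Both libraries labelled Sox2 exceeded both labelled control in 5 chains, which held for 15.7% of tested genes, and in 0 chains did both lie below, which held for 42.5%. The median log2 difference of the chains was 2.02 and that of all tested genes was -0.29. Rescaling by median of ratios brings the latter to 0.00 and moves the differences of the chains to between 0.39 for Col4a6 and 5.16 for Col4a3. It also turns the split of all calls from 506 higher and 976 lower to 964 and 686. Testing every gene, without the filter on low values, ended the call of all 4 chains (limma adjusted p = 0.354 for Col4a1, 0.283 for Col4a2, 0.212 for Col4a3 and 0.233 for Col4a4) and left 0 genes called. In that fit 1145 genes had an unadjusted p under 0.05 upward and 2467 downward.

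**Figure D2:**
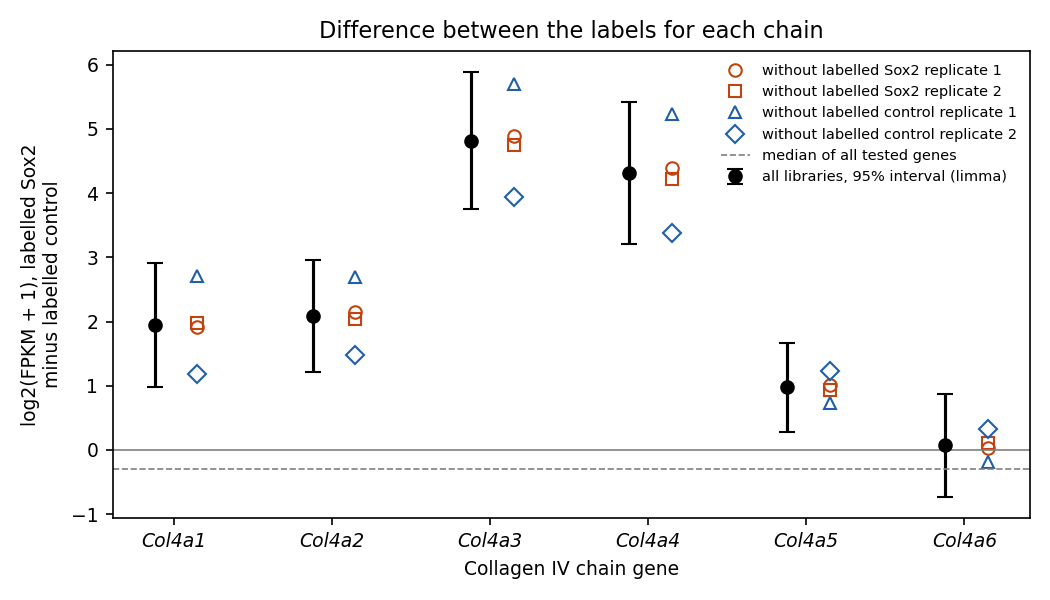
Log2 difference of each chain, labelled Sox2 minus labelled control, with its 95% interval in limma (black) and the value with each library left out (open symbols). The differences run from 0.07 for Col4a6 to 4.82 for Col4a3, and leaving out a labelled control library moves them more than leaving out one labelled Sox2.

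The replicate spread of the chains lay in the control group. Between the libraries labelled Sox2, replicate 1 was 0.880 to 1.06 times replicate 2 across the chains. Between those labelled control the ratio was 2.89 for Col4a1, 2.35 for Col4a2, 4.26 for Col4a3 and 4.41 for Col4a4, but 0.701 for Col4a5 and 0.672 for Col4a6. The deposited bounds of the 2 control libraries did not overlap for any of the 6 chains, and those of the libraries labelled Sox2 did not overlap for 4. The bounds therefore cover less than the spread between libraries.

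The order of the chains differed by label. FPKM is per transcript length, so levels can be set beside each other within a library. In both libraries labelled Sox2 the order from high to low was Col4a1, Col4a2, Col4a3, Col4a4, Col4a5, Col4a6. The ranges of neighbours in that order did not overlap. In labelled control replicate 1 it was Col4a1, Col4a2, Col4a5, Col4a4, Col4a3, Col4a6. In labelled control replicate 2 it was Col4a5, Col4a1, Col4a2, Col4a6, Col4a4, Col4a3. In that library the bounds of Col4a5 (57.8 to 63.2 FPKM) and Col4a1 (57.1 to 59.9 FPKM) overlapped, so which of them led was not resolved. Under the control label the ranges of Col4a1, Col4a2 and Col4a5 overlap, as do those of Col4a3, Col4a4 and Col4a6.

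Col4a3 and Col4a4 together made up 29.6% and 31.5% of the summed FPKM of the 6 chains under the Sox2 label, and 7.43% and 3.32% under the control label. Col4a5 made up 8.44% and 8.53% against 11.7% and 32.4%. Col4a1 and Col4a2 together held 61.0% and 59.1% against 78.5% and 57.6%, so their joint share overlapped between the labels. The make-up was thus nearly the same in both libraries labelled Sox2 and differed between those labelled control. In labelled control replicate 2 the shares of Col4a5 (32.4%) and Col4a1 (31.3%) were close, and the bounds of their levels overlapped.

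**Figure D3:**
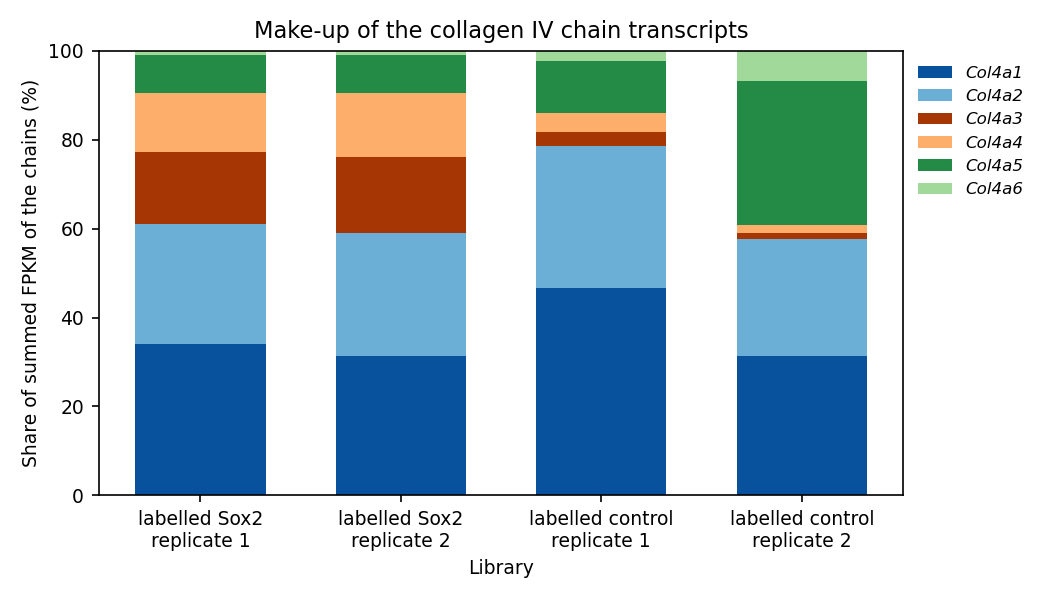
Share of each chain in the summed FPKM of the 6 chains, in percent, for each library. The brown and orange part (Col4a3 and Col4a4) is 29.6% and 31.5% under the Sox2 label and 7.43% and 3.32% under the control label, while Col4a5 reaches 32.4% in labelled control replicate 2.

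Ratios between chains do not depend on a scale factor common to a library, and 6 of them were compared with exact two-sided permutation tests over the libraries, whose smallest possible p is 0.333 for 2 against 2. The ratio of Col4a3 to Col4a4 was 1.21 and 1.17 under the Sox2 label and 0.793 and 0.821 under the control label. In FPKM, Col4a3 thus led its partner under the first label and trailed it under the second. Which of the chains leads rests on the transcript lengths used for FPKM. The ratio of Col4a3 to Col4a1 was 0.475 and 0.543 against 0.0704 and 0.0478, an 8.75-fold difference of geometric means. The ratio of Col4a5 to Col4a6 was 8.68 and 9.75 against 4.99 and 4.79.

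The ratio of Col4a5 to Col4a3, chosen after the values were seen, changed sides. It was 0.521 and 0.502 in the libraries labelled Sox2, where Col4a5 was the scarcest chain of the alveolar trimer, and 3.56 and 21.6 in those labelled control, where Col4a3 was. These 4 ratios were separated between the labels (exact permutation p = 0.333 each, 0.5 after adjustment over the 6). Col4a1 to Col4a2, at 1.27 and 1.12 against 1.47 and 1.19, and Col4a5 to Col4a1, at 0.248 and 0.273 against 0.251 and 1.03, overlapped between the labels (exact permutation p = 0.667 each). The difference in Col4a5 to Col4a1 rested on labelled control replicate 2, without which its log2 value of -0.97 became 0.05, and that in Col4a1 to Col4a2 went from -0.15 to 0.00 without labelled control replicate 1.

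The head-to-head pairs of the chains were then set beside those of all tested protein-coding genes, a set that includes the pairs of the chains themselves. The gap between the log2 differences was 0.14 for Col4a1 and Col4a2, 0.51 for Col4a4 and Col4a3 and 0.91 for Col4a6 and Col4a5. Over all 727 pairs of tested protein-coding genes that GENCODE M21 places head to head, with starts up to 2000 bases apart or overlapping by up to 500, the median gap was 0.49, with quartiles of 0.22 and 0.84. The gap of Col4a1 and Col4a2 lay below the lower quartile, that of Col4a4 and Col4a3 near the median and that of Col4a6 and Col4a5 above the upper quartile. Both partners were called higher in 2 of the 727 pairs, or 0.275%, and these were Col4a4 with Col4a3 and Col4a1 with Col4a2. Any partner was called higher in 10 pairs, and both were lower in 9. This search was added after the values were seen, and no test was made of it. The overlap of the first exons of Col4a1 and Col4a2 is in GENCODE M21 only, and the spans in the deposited tables, from which the FPKM values come, do not overlap.

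**Figure D4:**
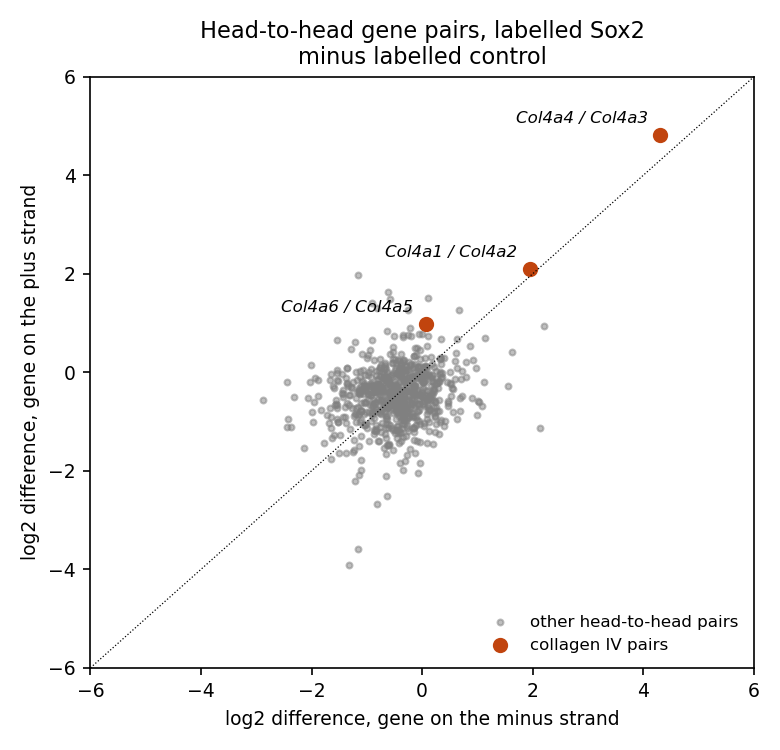
Log2 difference (labelled Sox2 minus labelled control) of the minus-strand gene against that of the plus-strand gene for 727 head-to-head pairs, with equality as a dotted line. Col4a4 with Col4a3 lies at 4.31 and 4.82 and Col4a1 with Col4a2 at 1.95 and 2.09, both close to the line, and Col4a6 with Col4a5 lies at 0.07 and 0.98.

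The genes closest in pattern to each chain were taken by Euclidean distance of log2(FPKM + 1), centred per gene, over the 4 libraries. Nearest to Col4a3 were the sodium channel subunit Scnn1g (distance 0.37), the water channel Aqp1 (0.38) and the guidance cue Sema3a (0.40). For Col4a4 they were the matrix glycoprotein Thbs3 (0.24), Sema3a (0.30) and the tight junction protein Cldn18 (0.42). Col4a1 lay nearest to the amino acid transporter Slc6a14 (0.15), the tetraspanin Tspan11 (0.16) and Npnt (0.17), which encodes nephronectin, a basement membrane protein that binds an integrin. Npnt was also nearest to Col4a2 (0.13), at 237 and 248 FPKM against 95.8 and 37.7 FPKM, followed by Ptpre (0.15). For Col4a5 they were the focal adhesion protein Pxn (0.09), Ttc39b (0.10) and Cxxc5 (0.16), and for Col4a6 the retinoic acid receptor Rara, Mxd4 and Spata13 (0.04 each). For comparison, the distance was 0.28 between Col4a1 and Col4a2, 0.52 between Col4a3 and Col4a4, 0.91 between Col4a5 and Col4a6, and 1.65 to 5.02 between chains of different pairs. With 4 libraries in 2 groups many genes share a pattern, so these distances are descriptions.

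Genes that modify, fold and export collagen chains were higher in part. All 20 listed genes were tested, and 6 were higher under the Sox2 label, 0 were lower and 14 did not pass, against 4.20% of all tested genes higher. The median log2 difference was 0.58. The prolyl hydroxylase catalytic subunits P4ha3 (19.1 and 19.6 against 5.04 and 1.73 FPKM, log2 difference 2.32) and P4ha1 (23.4 and 16.2 against 6.54 and 1.68 FPKM, 2.19) were higher, as was Colgalt2 (2.40), which adds galactose to hydroxylysine. The other 3 were the lysyl hydroxylases Plod1 (1.92) and Plod2 (1.33) and the prolyl 3-hydroxylase Lepre1 (1.33). The most abundant members did not pass: P4hb, the shared subunit of prolyl hydroxylase, stood at 312 and 226 against 302 and 146 FPKM, and the collagen chaperone Serpinh1 at 263 and 209 against 194 and 111 FPKM. Without labelled Sox2 replicate 1 the count of higher genes was 1, and without labelled Sox2 replicate 2 it was 0.

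Partners of collagen IV in the basement membrane were also higher in part. Of 23 listed genes 21 were tested, 4 were higher, 0 were lower and 17 did not pass, against 4.20% of all tested genes higher and 8.11% lower. The median log2 difference was 0.88. Sparc, a collagen-binding matrix protein, stood at 1344 and 1319 FPKM under the Sox2 label and at 386 and 107 FPKM under the control label (log2 difference 2.71, SE 0.50, limma adjusted p = 0.00765). The laminin chains Lama3 (100 and 112 against 27.2 and 4.47 FPKM, 3.10) and Lamb2 (89.2 and 91.4 against 26.6 and 18.0 FPKM, 2.00) and the proteoglycan Agrn (1.33) were the other 3. Pxdn, the peroxidase that forms the sulfilimine crosslinks between collagen IV trimers, stood at 78.6 and 73.9 against 52.4 and 9.52 FPKM and did not pass (1.70, limma adjusted p = 0.0804). The count of higher genes fell to 0 when labelled Sox2 replicate 2 was left out and was 11 when labelled control replicate 1 was. Lama3 did not pass under the robust variance model (limma adjusted p = 0.163).

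Of 10 genes listed as matrix receptors or partners of such receptors 9 were tested, 1 was higher and 1 lower. At this list size these counts are near the 4.20% higher and 8.11% lower over all tested genes. The integrin subunit Itgb3 was higher at 16.0 and 19.2 against 1.25 and 0.400 FPKM (log2 difference 3.38, limma adjusted p = 8.49e-04), and Cd47, a partner of integrins, was lower at 33.9 and 32.1 against 85.9 and 63.5 FPKM (-1.14, limma adjusted p = 0.0386). Cd47 did not pass under any of 3 rescalings (limma adjusted p from 0.0582 to 0.0807), without a variance trend (0.0684), or without labelled Sox2 replicate 1 (0.123), labelled Sox2 replicate 2 (0.235) or labelled control replicate 1 (0.127). The other 7 did not pass, among them Itgb1 (198 and 138 against 189 and 80.9 FPKM) and the collagen receptor kinase Ddr1 (69.0 and 80.7 against 65.8 and 98.7 FPKM). No gene of turnover passed among the 5 tested of 11 in limma. The 2 most abundant were the inhibitor Timp3 (292 and 303 against 276 and 171 FPKM, log2 difference 0.45) and the membrane protease Mmp14 (109 and 84.6 against 82.8 and 86.3 FPKM, 0.18). At an unadjusted p under 0.05 in limma, 1 of the 5 was higher (Timp2) and 0 lower. At that level 1020 of all 12040 tested genes were higher and 2538 lower.

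Of 36 listed collagens of other types 15 were tested, 1 was higher, 1 was lower and 13 did not pass, which is near the shares over all tested genes (4.20% higher and 8.11% lower). The median log2 difference was 1.16. The fibrillar collagen Col5a2 was higher (46.0 and 46.4 against 8.14 and 1.19 FPKM, 3.40) and the fibril-associated Col14a1 lower (3.40 and 1.20 against 18.9 and 17.7 FPKM, -2.63). Col1a1, the main fibrillar collagen of fibroblasts, stood at 82.3 and 27.9 against 38.5 and 10.3 FPKM, so the labels overlapped. Its libraries labelled Sox2 lay further apart than those of any collagen IV chain. Median-of-ratios rescaling gave 3 higher collagens, beside 964 higher of all 12040 tested genes. Without labelled Sox2 replicate 2 neither Col5a2 nor Col14a1 passed.

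**Figure D5:**
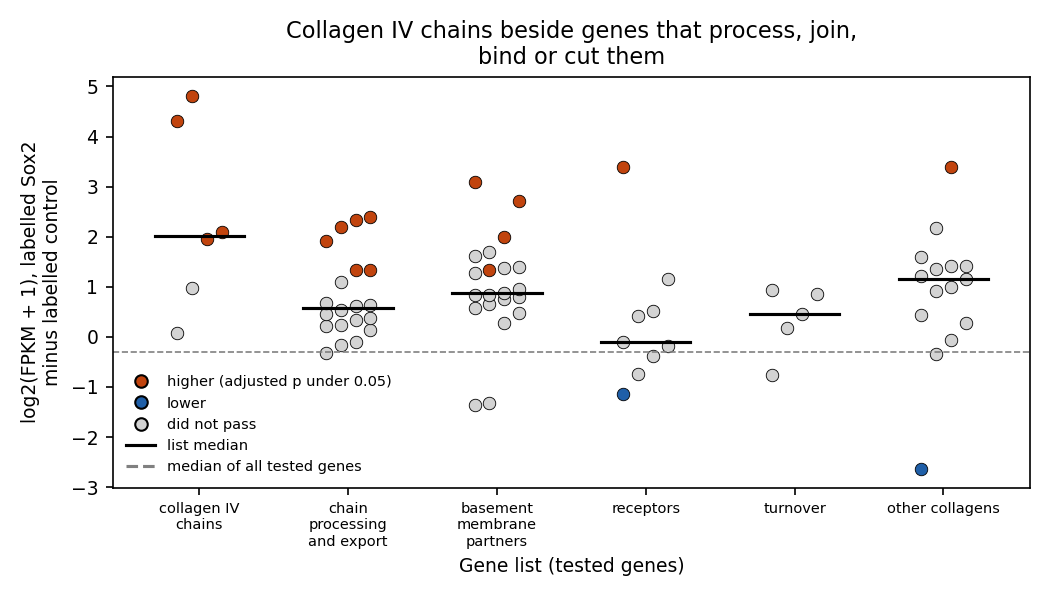
Log2 difference of every tested gene among the collagen IV chains and in the 5 lists of related matrix genes, labelled Sox2 minus labelled control, coloured by its call in limma, with the list median as a bar and the median of all tested genes (-0.29) dashed. The 6 medians drawn run from -0.11 for receptors to 2.02 for the collagen IV chains.

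Markers of cells that also make collagen IV were present, and the counts for these and the other marker lists stand against 4.20% of all tested genes higher and 8.11% lower. Of 10 endothelial markers, all tested, 3 were higher (Cdh5, Cldn5 and Esam), 0 were lower and 7 did not pass, and they summed to 195 and 134 FPKM under the Sox2 label against 48.8 and 17.7 FPKM under the control label. None was at 0 in any library. Esam held the most of these sums under the Sox2 label, at 63.3 and 74.5 FPKM against 8.44 and 2.54 FPKM. It was higher in labelled Sox2 replicate 2 than in replicate 1, while every other endothelial marker was lower there. Pecam1 stood at 19.3 and 7.50 against 6.41 and 1.43 FPKM. Of 8 smooth muscle and pericyte markers 5 were tested, 1 was higher (Des) and 0 lower, with sums of 77.1 and 37.4 against 34.2 and 10.0 FPKM and none at 0. Of 9 fibroblast markers 8 were tested, 1 was higher (Eln) and 0 lower, with sums of 452 and 216 against 374 and 93.7 FPKM. Fn1 weighed heavily in the sums under the control label, at 60.3 and 8.97 against 193 and 30.8 FPKM. Its log2 difference was -1.67 and did not pass. That of Dcn was also negative (-0.11), and those of the other tested fibroblast markers were positive. Lum was at 0 in labelled Sox2 replicate 2. Between the libraries labelled control these 3 sums and the levels of Col4a1 to Col4a4 were higher in replicate 1 than in replicate 2. The sums of AT1 and alveolar type 2 markers, given below, had that order too. Between the libraries labelled Sox2 the endothelial, muscle and fibroblast sums were also higher in replicate 1. There Col4a1 had that order (395 and 380 FPKM), while Col4a2 (312 and 338), Col4a3 (188 and 206) and Col4a4 (155 and 176 FPKM) had the reverse. The part of endothelial cells, muscle cells, pericytes and fibroblasts in the differences of the chains was not tested.

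Markers of alveolar epithelial cells were also higher under the Sox2 label. Of 12 AT1 markers, all tested, 10 were higher and 2 did not pass, with sums of 7276 and 8624 against 1647 and 850 FPKM. All 8 markers of alveolar type 2 cells, the surfactant makers, were higher, with sums of 25097 and 17346 against 5934 and 953 FPKM. The median log2 difference was 3.13 for the AT1 list and 3.17 for the type 2 list, both above the 2.02 of the collagen IV chains. In the other marker lists it was below 2.02, the largest being 1.41 for the endothelial list. Of 8 airway and basal cell markers 5 were tested, with Scgb3a2 higher, Trp63 lower and 3 that did not pass, and sums of 3448 and 5925 against 1889 and 1807 FPKM. The leukocyte list had 1 higher of 5 tested, Lyz2, which type 2 cells also express, and Ptprc stood at 3.22 and 1.49 against 1.66 and 0.566 FPKM. Of 4 mesothelial markers 2 were tested and 0 passed in limma, and Wt1 did not exceed 0.184 FPKM. At an unadjusted p under 0.05, 1 of the 2 was higher, beside 1020 higher and 2538 lower of all 12040 tested genes. How much of the difference in each chain goes with a change in the mix of cells was not tested.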

How the data were processed

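Messenger RNA of sorted cells was sequenced on an Illumina HiSeq2000, per the labels' protocols. The authors deposited 1 table of FPKM values with lower and upper bounds per library. TopHat2, Bowtie2, Cufflinks and Cuffdiff with build mm10 are named in the submitters' processing notes. Their versions, the annotation and the strand setting: not given in the sources used here. A further table holds 2 columns of pooled values whose names match no label and was not used. Each table lists 24490 entries. Entries of 1 symbol were added (267 genes), and 1 gene with a failed status was left out, which left 23990 genes. If bound widths are read as counting error, 70.8% to 72.6% of low values per library gave whole fragments within 0.1, so counts were not rebuilt.

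The 12040 genes whose mean over the libraries reached 1 FPKM were tested on log2(FPKM + 1) with limma 3.58.1 in R 4.3.3 (lmFit, eBayes with trend), two-sided, Benjamini-Hochberg adjusted over all tested genes at 0.05. The model leaves 2 residual degrees of freedom per gene, and the same code was tested on simulated data. Groups came from the sample titles. Alternatives were a pseudocount of 0.1 FPKM, other filters, 3 rescalings, 2 variance models, a replicate block and each library left out. Start positions in the tables count from 0 and are given here from 1.

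The members and lists were chosen with earlier results of these data known. The naming rule takes Sox2, the 6 chains, up to 3 called genes with the largest difference per list (or the 2 most abundant if none), the 3 genes nearest in pattern to each chain, and defining cell type markers. One gene that this rule takes is not reported here. Other genes were named after their values were seen. Lists share members: Col1a1, Col1a2 and Col3a1 are in the fibroblast list and among other collagens.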

Additional observations from a re-analysis of the deposited data

How the results depend on the processing

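Without the filter on low values, Col4a1 (1.95), Col4a2 (2.09), Col4a3 (4.82) and Col4a4 (4.31) kept their log2 difference and lost their call. Over all genes 0 were then higher and 0 lower, and over genes above 0 in 1 library, a filter added after seeing the data, 0 and 3 (1251 and 2618 at an unadjusted p under 0.05). Both left 0 calls in every list. The cause was not tested. Median-of-ratios rescaling gave 964 higher genes, quantile normalization 980 and rescaling without small RNA genes 769, so that 58.4%, 54.2% and 53.7% of calls were higher against 34.1%. Col4a5 passed under the last 2 (1.28 each) and under the robust variance model (0.98). The first 2 rescalings gave 2 receptors and 3 other collagens higher, the third 1 and 2, and each gave 0 receptors lower and 1 turnover gene higher. The robust model gave 1 lower membrane partner, and no variance trend gave 0 lower receptors. With the replicate number as a block, 1142 genes were higher and 2730 lower, Col4a5 passed (0.98, adjusted p = 0.0256 in limma), and 9 membrane partners, 2 receptors, 2 turnover genes and 10 other collagens were higher and 2 partners and 2 receptors lower. It changed no other chain's call. The labels tie no shared litter or day to a number, and replicate 1 deviations correlated at r = 0.23 over 12040 genes, so the numbers were not taken as pairs.

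Leaving out 1 library at a time, the log2 difference ranged from 1.19 to 2.70 for Col4a1, 1.48 to 2.70 for Col4a2, 0.72 to 1.23 for Col4a5 and -0.19 to 0.33 for Col4a6. The log2 ratio difference ranged from -0.30 to 0.00091 for Col4a1 to Col4a2 and from -1.99 to 0.053 for Col4a5 to Col4a1. Counts ranged from 119 to 837 higher and 115 to 1312 lower over all genes. In the lists they ranged from 0 to 6 higher for chain processing, 0 to 11 higher and 0 to 2 lower for membrane partners, 1 to 2 higher and 0 to 1 lower for receptors, 0 to 2 higher and 0 to 1 lower for turnover, and 0 to 7 higher and 0 to 1 lower for other collagens. A lone library is then assumed to vary like the other group. Depth is unknown, and 2 libraries a group limit every test.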
